A study of Mus musculus with 9 samples.

Results

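The S phase and mitosis genes are a set of 50 genes of the cell cycle, chosen by name from the 54532 genes of the deposited count table. They comprise 22 genes whose products act in G1/S and DNA replication (called S phase genes) and 28 genes whose products act in chromosome condensation, spindle assembly, chromosome segregation and cytokinesis (called mitosis genes). Each symbol was found once, and all 50 genes passed the filter on low counts in each comparison of stages. RNA-seq was performed on lambdoidal junction tissue of C57BL/6J mouse embryos at E10.5 (35 to 39 somites), E11.5 (45 to 47 somites) and E12.5 (48 to 51 somites), with no treatment or engineered allele named at any stage. The lambdoidal junction is where the maxillary, lateral nasal and medial nasal prominences meet while the upper lip and primary palate form. Each stage had 3 libraries, each from pooled tissue of 17 to 18 embryos, so variation between single embryos could not be seen. Sequencing depth was 16581009 to 20836804 counts per library. Levels are CPM (counts divided by library sizes that were scaled by TMM over all 9 libraries), and fold changes are those of the later over the earlier stage from the quasi-likelihood test of edgeR, with p-values adjusted by Benjamini-Hochberg over all genes tested. A gene was called lower or higher at an adjusted p of at most 0.05, and was a DEG where the absolute log2 fold change was at least 1 as well.

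A cycling cell licenses its replication origins in G1 by loading the MCM helicase with the help of Cdc6 and Cdt1, and fires them in S phase. Cyclin E with Cdk2 helps to release the E2F transcription factors from repression by the retinoblastoma family. Cyclin A and cyclin B with Cdk1 then drive entry into mitosis, where the spindle checkpoint holds the anaphase-promoting complex (APC/C) back until every chromosome is attached. Transcripts of S phase genes peak around G1/S and those of mitosis genes around G2/M, so in a tissue the level of either list follows the share of cells in the cycle as well as the amount of RNA per cycling cell. In these bulk libraries fewer cycling cells and less RNA per cycling cell cannot be told apart. Mesenchyme of the early facial prominences is known as a rapidly dividing tissue.

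The proximal promoters of these genes are shown here because their letters differ between the lists. The RefSeq promoter table for GRCm38.p6, with 250 bases before and 50 after each gene's start, had an entry for 40 of the 50 genes. The types of site searched, on both strands, were an E2F-type site (TTTNNCGC), a cell cycle genes homology region or CHR (TTTGAA or TTCGAA), and a CCAAT box (CCAAT). E2F-type letters were found in 9 of 18 S phase promoters (50%) and in 1 of 24 mitosis promoters (4.17%), beside 5.17% of all 32851 promoters in the table. CHR letters were found in 3 of 18 S phase promoters (16.7%) and in 19 of 24 mitosis promoters (79.2%), beside 19.2% of all promoters. CCAAT was found in 66.7% of S phase and 79.2% of mitosis promoters, beside 37.4% of all, and a CHR together with CCAAT in 16.7%, 70.8% and 7.53%. A few genes have more than 1 listed start, and matches can overlap, as where an E2F-type site reads on both strands. A match is a description of the letters, not of a bound site.

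The 200 bases before the start are printed below 5′ to 3′ on the gene's strand, with every match in capitals. *Mcm5*, *Mcm6* and *Cdc6* stand for the S phase genes with E2F-type letters, *Top2a*, *Mki67* and *Cdc20* for the mitosis genes with a CHR and CCAAT, and *Cdk1* is the 1 mitosis gene with all 3 types.

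Mcm5 (chr8:75109309-75109508, plus strand): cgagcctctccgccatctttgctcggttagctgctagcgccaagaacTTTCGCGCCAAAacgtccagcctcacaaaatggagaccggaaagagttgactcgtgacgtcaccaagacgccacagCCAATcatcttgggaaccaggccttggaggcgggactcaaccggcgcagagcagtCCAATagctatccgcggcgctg
Mcm6 (chr1:128359706-128359905, minus strand): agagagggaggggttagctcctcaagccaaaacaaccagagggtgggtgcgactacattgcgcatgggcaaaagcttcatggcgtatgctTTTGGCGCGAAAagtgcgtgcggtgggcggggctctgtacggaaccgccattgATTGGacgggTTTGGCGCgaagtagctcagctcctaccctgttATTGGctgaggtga
Cdc6 (chr11:98907951-98908150, plus strand): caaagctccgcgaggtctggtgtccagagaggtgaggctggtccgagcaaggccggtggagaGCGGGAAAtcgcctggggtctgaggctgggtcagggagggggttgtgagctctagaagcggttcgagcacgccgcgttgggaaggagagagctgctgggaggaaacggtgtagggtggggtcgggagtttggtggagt
Top2a (chr11:99024190-99024389, minus strand): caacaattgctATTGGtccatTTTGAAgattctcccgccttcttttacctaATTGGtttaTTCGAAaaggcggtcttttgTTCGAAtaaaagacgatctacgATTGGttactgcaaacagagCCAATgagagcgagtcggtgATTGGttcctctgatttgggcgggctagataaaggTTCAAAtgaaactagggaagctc
Mki67 (chr7:135716380-135716579, minus strand): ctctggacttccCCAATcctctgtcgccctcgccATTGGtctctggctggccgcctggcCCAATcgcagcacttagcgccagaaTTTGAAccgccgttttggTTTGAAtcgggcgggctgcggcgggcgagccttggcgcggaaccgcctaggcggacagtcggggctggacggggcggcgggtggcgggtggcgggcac
Cdc20 (chr4:118437344-118437543, minus strand): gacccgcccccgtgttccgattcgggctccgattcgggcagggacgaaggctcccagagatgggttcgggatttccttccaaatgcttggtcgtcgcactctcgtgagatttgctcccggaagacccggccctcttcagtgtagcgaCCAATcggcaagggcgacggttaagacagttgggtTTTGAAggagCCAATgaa
Cdk1 (chr10:69352913-69353112, minus strand): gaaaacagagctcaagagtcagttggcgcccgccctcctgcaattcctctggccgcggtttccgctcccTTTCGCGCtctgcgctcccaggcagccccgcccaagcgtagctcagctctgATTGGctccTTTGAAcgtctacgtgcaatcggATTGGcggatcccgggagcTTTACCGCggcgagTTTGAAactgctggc

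Capitals in *Mcm5* and *Mcm6* include an E2F-type site that reads on both strands, and *Cdc6* holds its only match as GCGGGAAA, the reverse complement of the searched letters. Among the S phase genes with a listed promoter, 6 of 9 with E2F-type letters and 5 of 8 without them were called lower in E12.5 vs. E10.5, with median log2 fold changes of -0.60 and -0.73, beside 10.5% of all genes tested that were called lower. Among the mitosis genes, 10 of 18 with a CHR and 2 of 5 without one were called lower, with medians of -0.58 and -0.56. Within each list the fold changes of genes with and without these letters overlapped, and the difference was not tested.

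A single library stood apart in its trend with GC content and touches the values below. Other libraries moved the counts as well, as given with each comparison. In E10.5 replicate 3, the log2 difference from the other E10.5 libraries fell with the GC content of the transcript. Spearman's rho across genes was -0.70 over the 22 S phase genes and -0.88 over the 28 mitosis genes, beside -0.55 over 16363 genes. The library's log2 difference ranged from -0.69 (*E2f1*) to 1.39 (*Ccne2*) among S phase genes and from -0.46 (*Plk1*) to 1.05 (*Mad2l1*) among mitosis genes. It was the highest E10.5 library for 14 of 22 and 20 of 28 genes, and the share of all genes is not given here. Counts without it are given beside each comparison that uses it. The tissue label was checked against marker lists. The summed level of 5 mesenchyme markers (*Prrx1*, *Twist1*, *Pdgfra*, *Msx1* and *Col3a1*) was 927 to 1709 CPM at E10.5, 2680 to 2959 CPM at E11.5 and 3335 to 3732 CPM by E12.5. The summed level of 6 forebrain and eye neuroepithelium markers was 200.2 to 284 CPM at E10.5, 76.8 to 81.8 CPM at E11.5 and 78.2 to 98.0 CPM by E12.5. In E12.5 vs. E10.5, 5 of the 6 were called lower, beside 10.5% of all genes tested. In the same order of stages, neuron markers summed to 186 to 200.3, 227 to 253 and 346 to 428 CPM, erythroid markers to 3097 to 4440, 4771 to 5087 and 3792 to 4924 CPM, surface epithelium markers to 372 to 675, 367 to 388 and 504 to 534 CPM, endothelium markers to 114 to 308, 294 to 308 and 247 to 314 CPM, macrophage markers to 19.7 to 31.3, 30.5 to 34.3 and 38.7 to 42.8 CPM, cartilage markers to 624 to 1061, 480.0 to 610.0 and 529 to 699.9 CPM, and skeletal muscle markers to 1.30 to 3.31, 1.59 to 2.53 and 3.34 to 4.0 CPM. In E12.5 vs. E10.5, markers called higher and lower were 2 and 0 for neuron, 2 and 3 for erythroid and 1 and 2 for surface epithelium. They were 2 and 0 for macrophage, 3 and 1 for cartilage, and 0 and 0 for endothelium and skeletal muscle. Of all genes 14.0% were called higher and 10.5% lower. No marker was at 0 in all libraries. Their part in the changes of the cycle genes was not tested.

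**Figure D1:**
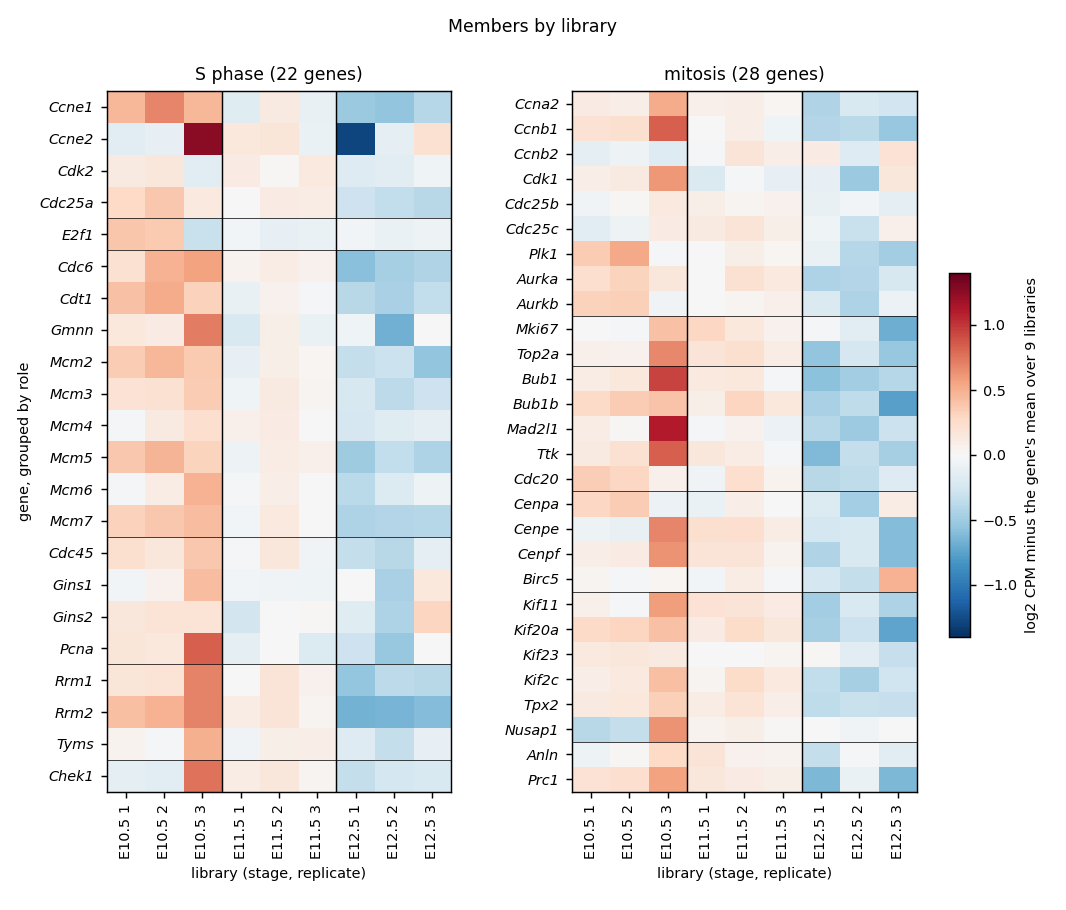
Log2 CPM of the 50 genes in each of the 9 libraries (columns), as the difference from the gene's mean over all libraries, with genes in rows grouped by role (thin lines) and stages divided by vertical lines. The E12.5 columns are below the mean for most genes, and E10.5 replicate 3 holds the highest values of several mitosis genes, *Mad2l1* and *Bub1* among them.

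Over the whole span of the series, E12.5 vs. E10.5, both lists held many genes with lower levels at the later stage. Of the 22 S phase genes 11 were called lower (50%), and of the 28 mitosis genes 15 (53.6%), beside 10.5% of all 15899 genes tested. No gene of either list was called higher, beside 14.0% of all genes. The median log2 fold change was -0.58 for the S phase genes and -0.55 for the mitosis genes, beside -0.0063 for all genes tested. DEGs were *Ccne1* and *Rrm2*, both lower, 2 of the 50 genes, beside 5.08% of all genes that were DEGs lower at E12.5 and 9.97% that were DEGs higher. All E12.5 libraries lay below all E10.5 libraries for 17 S phase and 20 mitosis genes, beside 20.4% of all genes.

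Omitting E10.5 replicate 1, 2 or 3 gave 9, 8 or 12 S phase genes and 9, 9 or 14 mitosis genes, and omitting E12.5 replicate 1, 2 or 3 gave 7, 9 or 9 S phase genes and 3, 8 or 6 mitosis genes. In the same fits, in the same order, 7.87%, 6.71%, 13.4%, 4.77%, 10.3% and 5.66% of all genes were called lower. Genes called in each of these 6 fits were *Ccne1*, *Cdc6*, *Cdt1*, *Mcm2*, *Mcm5*, *Mcm7* and *Rrm2* (7 of the 11 S phase genes) and *Bub1b*, *Ccnb1* and *Kif20a* (3 of the 15 mitosis genes). *Rrm1*, *Bub1* and *Ttk* were called in 5 fits and missed without E12.5 replicate 1 (adjusted p = 0.0742, 0.0734 and 0.0688, edgeR). *Cenpf* and *Prc1* were called in 4 fits, *Mad2l1* and *Top2a* in 3, *Cdc25a*, *Cdc45* and *Aurka* in 2, *Mcm3*, *Plk1*, *Cdc20*, *Kif2c* and *Tpx2* in 1, and *Ccna2* (adjusted p = 0.0499 with all libraries) in 0. The 3 stages together differed for 12 of 22 S phase and 16 of 28 mitosis genes in a test on all 9 libraries, beside 28.3% of 16375 genes.

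**Figure D2:**
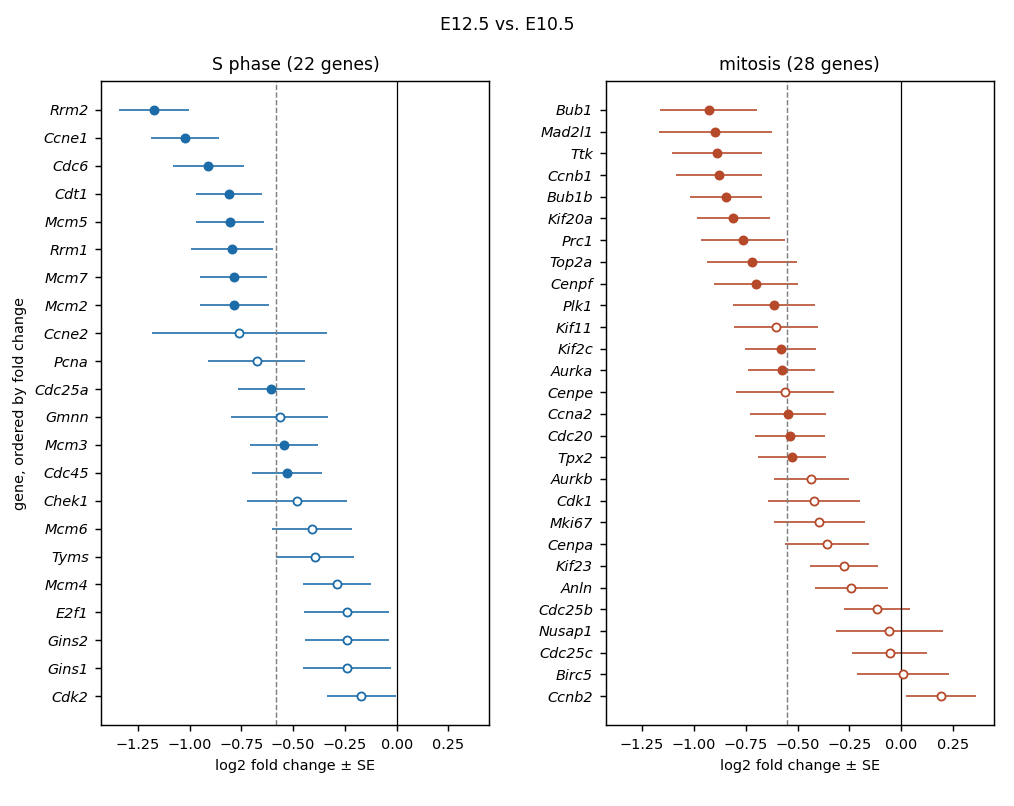
Log2 fold change of each gene in E12.5 vs. E10.5, with bars for the SE of the fit on 6 libraries. Filled points are genes called lower, open points were not called, and the dashed line is the list's median (-0.58 for S phase and -0.55 for mitosis).

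Among the S phase genes, the regulators of G1/S entry gave mixed results. *Ccne1* (chr7:38097984-38107534 in GRCm38, minus strand), which encodes cyclin E1, the partner of Cdk2 in starting S phase, gave 114, 132 and 113 CPM at E10.5, 73.1, 89.5 and 76.7 CPM at E11.5 and 57.4, 56.0 and 62.3 CPM at E12.5. The 3 stages did not overlap, and each stage lay below the one before. Mean levels were 119.7 ± 11.01, 79.8 ± 8.65 and 58.6 ± 3.27 CPM (SD, n = 3 each). The log2 fold change in E12.5 vs. E10.5 was -1.02 ± 0.16 (SE), adjusted p = 0.00123 (edgeR's quasi-likelihood test, Benjamini-Hochberg adjusted), a 2.03-fold lower level. *Cdc25a*, the phosphatase that activates Cdk2, was lower as well (log2 fold change -0.60 ± 0.16 (SE), adjusted p = 0.0198, edgeR). *Ccne2*, the gene of the other E-type cyclin, gave 31.7, 32.6 and 84.4 CPM at E10.5, 39.01, 39.8 and 33.1 CPM at E11.5 and 14.5, 32.0 and 40.8 CPM at E12.5. These values spread more within E10.5 and within E12.5 than those of *Ccne1*, and *Ccne2* was not called (log2 fold change -0.76 ± 0.42 (SE), adjusted p = 0.217, edgeR). Of the exons of *Ccne2* 17.4% overlap the antisense gene *Ints8*. *Cdk2* itself was not called either (log2 fold change -0.17 ± 0.17 (SE), adjusted p = 0.491, edgeR).

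*E2f1*, a transcription factor that activates S phase genes, gave 66.6, 65.7 and 41.1 CPM at E10.5, 49.7, 47.1 and 47.6 CPM at E11.5 and 49.6, 47.9 and 48.3 CPM at E12.5. The E11.5 and E12.5 libraries lay within a narrow range that the third E10.5 library fell below, and the stages overlapped. The log2 fold change in E12.5 vs. E10.5 was -0.24 ± 0.21 (SE), adjusted p = 0.43 (edgeR). Without E10.5 replicate 3, *E2f1* was called lower in both comparisons with E10.5.

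Origin licensing held the largest group of S phase genes. Of its 9 genes 6 were lower in E12.5 vs. E10.5, beside 10.5% of all genes tested. *Cdc6*, which loads the MCM helicase onto origins, gave 73.7, 88.9 and 93.6 CPM at E10.5, 65.6, 68.4 and 66.5 CPM at E11.5 and 42.5, 45.9 and 47.3 CPM at E12.5. The stages did not overlap, and the log2 fold change in E12.5 vs. E10.5 was -0.91 ± 0.17 (SE), adjusted p = 0.0032 (edgeR). *Cdt1*, the partner of Cdc6 in loading, fell from 126 ± 8.80 to 71.4 ± 2.86 CPM (SD, n = 3 each; log2 fold change -0.81 ± 0.16 (SE), adjusted p = 0.00417, edgeR). *Gmnn* encodes geminin, which inhibits Cdt1, and was not called (log2 fold change -0.56 ± 0.23 (SE), adjusted p = 0.104, edgeR), although its E12.5 libraries lay below its E10.5 libraries.

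*Mcm2* to *Mcm7* encode the 6 subunits of 1 helicase ring. In E12.5 vs. E10.5, 4 of the 6 were called lower, beside 10.5% of all genes tested. *Mcm2* gave 387, 417 and 388 CPM at E10.5, 278, 319 and 307 CPM at E11.5 and 239, 244 and 206 CPM at E12.5. Its stages did not overlap, and the log2 fold change was -0.78 ± 0.17 (SE), adjusted p = 0.00653 (edgeR). *Mcm5* (-0.80), *Mcm7* (-0.79) and *Mcm3* (-0.54) were also lower on the log2 scale, with adjusted p = 0.00515, 0.00525 and 0.0337 from edgeR. *Mcm6* (log2 fold change -0.41 ± 0.19 (SE), adjusted p = 0.146, edgeR) and *Mcm4* (log2 fold change -0.29 ± 0.17 (SE), adjusted p = 0.233, edgeR) were not called. All E12.5 libraries of *Mcm4* and *Mcm6* still lay below all E10.5 libraries, so the subunits shared a direction and differed in whether the change passed the test. Differences between the subunits were not tested.

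Of the genes of the replication fork, 1 of 4 was lower in E12.5 vs. E10.5, beside 10.5% of all genes tested. *Pcna*, the sliding clamp of the DNA polymerases, gave 470.3, 464 and 752 CPM at E10.5, 383, 420.2 and 368 CPM at E11.5 and 342, 291 and 417 CPM at E12.5. E10.5 replicate 3 stood far above the other libraries of its stage. All E12.5 libraries lay below all E10.5 libraries, and the log2 fold change was -0.68 ± 0.23 (SE), adjusted p = 0.0567 (edgeR), which did not pass. Without E10.5 replicate 3 the log2 fold change was -0.40 (adjusted p = 0.114, edgeR). *Pcna* was called in the same comparison by DESeq2 (adjusted p = 0.0213) and with the GC trend removed (adjusted p = 0.0284). It was also called after removal of the length trend, under the filter of at least 1 count, and without E10.5 replicate 1. Blocking on replicate and the single fit of 9 libraries gave a call as well. DESeq2's size factors, upper quartile normalization, the filter of at least 10 counts and leaving out hemoglobin genes did not. Nor did omitting any other library. *Cdc45*, part of the active helicase with MCM and GINS, was lower (log2 fold change -0.53 ± 0.17 (SE), adjusted p = 0.0406, edgeR). *Gins1* and *Gins2*, the genes of 2 GINS subunits, had log2 fold changes of -0.24 ± 0.21 and -0.24 ± 0.20 (SE) and were not called. Of the exons of *Gins2* 67.3% overlap the antisense gene *Gse1*, and without a stated strand setting the reads of both cannot be told apart.

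Genes of nucleotide supply included the largest change of all 50. *Rrm2* (chr12:24708241-24714146 in GRCm38, plus strand), the subunit of ribonucleotide reductase that limits the making of deoxynucleotides in S phase, gave 439, 459 and 531 CPM at E10.5, 353, 371 and 336 CPM at E11.5 and 207, 208 and 216 CPM at E12.5. The stages were fully apart, with a spread at E12.5 of 4.80 CPM (SD, n = 3) around a mean of 210.4. The log2 fold change in E12.5 vs. E10.5 was -1.17 ± 0.17 (SE), adjusted p = 6.60e-04 (edgeR), a 2.25-fold lower level. *Rrm1*, the other subunit of the enzyme, was lower as well (log2 fold change -0.79 ± 0.20 (SE), adjusted p = 0.0137, edgeR), and was called in 5 of the 6 fits on 5 libraries. *Tyms*, which makes thymidylate, was not called (log2 fold change -0.40 ± 0.19 (SE), adjusted p = 0.151, edgeR). *Chek1*, the kinase of the replication checkpoint, was not called (log2 fold change -0.48 ± 0.24 (SE), adjusted p = 0.177, edgeR).

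Among the mitosis genes, the cyclins and kinases that drive entry were lower in 4 of 9 cases in E12.5 vs. E10.5. The share of all genes tested was 10.5%. *Ccnb1*, which encodes cyclin B1, the activator of Cdk1 at mitotic entry, gave 292, 295 and 452 CPM at E10.5, 255, 270.1 and 244 CPM at E11.5 and 191, 195 and 176 CPM at E12.5. E10.5 replicate 3 was the highest library, and the E12.5 libraries lay below all others. The log2 fold change was -0.88 ± 0.21 (SE), adjusted p = 0.0108 (edgeR), and -0.64 without E10.5 replicate 3, still called. *Ccnb2*, the gene of the other mitotic B-type cyclin, had the largest positive log2 fold change of the 50 genes (0.19 ± 0.17, SE), which was not called (adjusted p = 0.446, edgeR).

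*Cdk1*, the kinase of mitotic entry, gave 212, 217 and 303 CPM at E10.5, 173, 195 and 184 CPM at E11.5 and 183, 139 and 222 CPM at E12.5. Its E12.5 libraries spanned the range of E11.5 and reached above 2 of the E10.5 libraries, so the stages overlapped, and the log2 fold change of -0.42 ± 0.22 (SE) was not called (adjusted p = 0.194, edgeR). *Aurka*, a kinase of spindle assembly (log2 fold change -0.58, adjusted p = 0.0243, edgeR), and *Plk1*, a kinase of mitotic entry and exit (log2 fold change -0.61, adjusted p = 0.042, edgeR), were lower. *Ccna2*, the gene of cyclin A2, which acts in both S phase and G2, was also called (log2 fold change -0.55). *Aurkb*, the kinase of the chromosomal passenger complex, and the phosphatase genes *Cdc25b* and *Cdc25c* were not called, with log2 fold changes of -0.43, -0.12 and -0.06.

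Of the genes of the spindle checkpoint and APC/C 5 of 5 were called lower in E12.5 vs. E10.5, beside 10.5% of all genes tested. In the 6 fits on 5 libraries, *Bub1b* was called in all, *Bub1* and *Ttk* in 5, *Mad2l1* in 3 and *Cdc20* in 1. *Bub1b*, which encodes the checkpoint protein BubR1, gave 249, 265 and 273 CPM at E10.5, 219, 255 and 229 CPM at E11.5 and 151, 162 and 123 CPM at E12.5. The E12.5 libraries lay far below the rest, E10.5 and E11.5 overlapped, and the log2 fold change in E12.5 vs. E10.5 was -0.85 ± 0.18 (SE), adjusted p = 0.00557 (edgeR). *Bub1*, a checkpoint kinase (-0.93), *Mad2l1*, which encodes the Mad2 inhibitor of APC/C (-0.90), *Ttk*, the Mps1 kinase (-0.89), and *Cdc20*, the activator of APC/C that the checkpoint holds back (-0.54), had adjusted p = 0.0152, 0.035, 0.0126 and 0.0388 from edgeR. *Mad2l1* gave 150.2, 141 and 302 CPM at E10.5, 138, 145 and 132 CPM at E11.5 and 106, 98.0 and 113 CPM at E12.5. The third E10.5 library held more than the others of its stage together, and without it the log2 fold change of *Mad2l1* was -0.45 (adjusted p = 0.0445, edgeR). That of *Bub1* was -0.60 (adjusted p = 0.0126, edgeR) without the same library.

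*Top2a* and *Mki67* encode abundant chromatin proteins of cycling cells. *Top2a*, the topoisomerase that separates entangled sister chromatids, gave 986, 978 and 1501 CPM at E10.5, 1070, 1100 and 1014 CPM at E11.5 and 643, 797 and 653 CPM at E12.5. The E12.5 libraries lay below all others, with a log2 fold change in E12.5 vs. E10.5 of -0.72 ± 0.22 (SE), adjusted p = 0.0338 (edgeR). The call was lost without E10.5 replicate 3 (adjusted p = 0.0513), E12.5 replicate 1 (0.133) or E12.5 replicate 3 (0.0958). *Mki67*, the gene of the proliferation antigen Ki-67, gave 678, 672 and 903 CPM at E10.5, 836, 753 and 711 CPM at E11.5 and 668, 610.0 and 426 CPM at E12.5. All E12.5 libraries lay below all E10.5 libraries, of which replicate 3 was highest. *Mki67* was not called in the main fit of any comparison (log2 fold change -0.40 ± 0.22 (SE), adjusted p = 0.216, edgeR, in E12.5 vs. E10.5). It was called lower in E12.5 vs. E11.5 without E12.5 replicate 2 and with the filter of at least 1 count.

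Of the 6 genes of spindle motors and microtubule proteins 3 were lower in E12.5 vs. E10.5, beside 10.5% of all genes tested. Of the 4 genes of centromere and kinetochore 1 was lower, and of the 2 genes of cytokinesis 1. *Kif20a*, a kinesin of the central spindle, gave 163, 167 and 180.0 CPM at E10.5, 147, 161 and 151 CPM at E11.5 and 98.3, 109.7 and 81.1 CPM at E12.5. The E12.5 libraries were separate from all others, and the log2 fold change was -0.81 ± 0.18 (SE), adjusted p = 0.0071 (edgeR). Of the exons of *Kif20a* 29.3% overlap the antisense gene *Cdc23*, and 11.1% of those of *Prc1* overlap *Rccd1*. Exons of *Mcm7* (12.6%), *Ccna2* (12.5%) and *Cdc25c* (12.7%) overlap those of other genes as well. In all, 14 of the 50 genes share exon bases with another gene. *Kif2c*, a kinesin that takes microtubules apart (-0.58), *Tpx2*, which activates Aurora A (-0.53), *Cenpf*, a kinetochore protein (-0.70), and *Prc1*, which bundles central spindle microtubules (-0.76), were lower on the log2 scale in E12.5 vs. E10.5, with adjusted p = 0.0301, 0.0376, 0.0282 and 0.0194 from edgeR. *Kif11*, the kinesin that pushes the spindle poles apart (log2 fold change -0.60, adjusted p = 0.0514, edgeR), and *Cenpe*, a kinetochore motor (log2 fold change -0.56, adjusted p = 0.111, edgeR), did not pass. *Birc5* (survivin), *Nusap1*, a spindle protein that binds microtubules, *Kif23*, a kinesin of the central spindle, *Anln* (anillin) and *Cenpa*, the centromeric histone, were not called, with log2 fold changes from -0.36 (*Cenpa*) to 0.01 (*Birc5*).

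**Figure D3:**
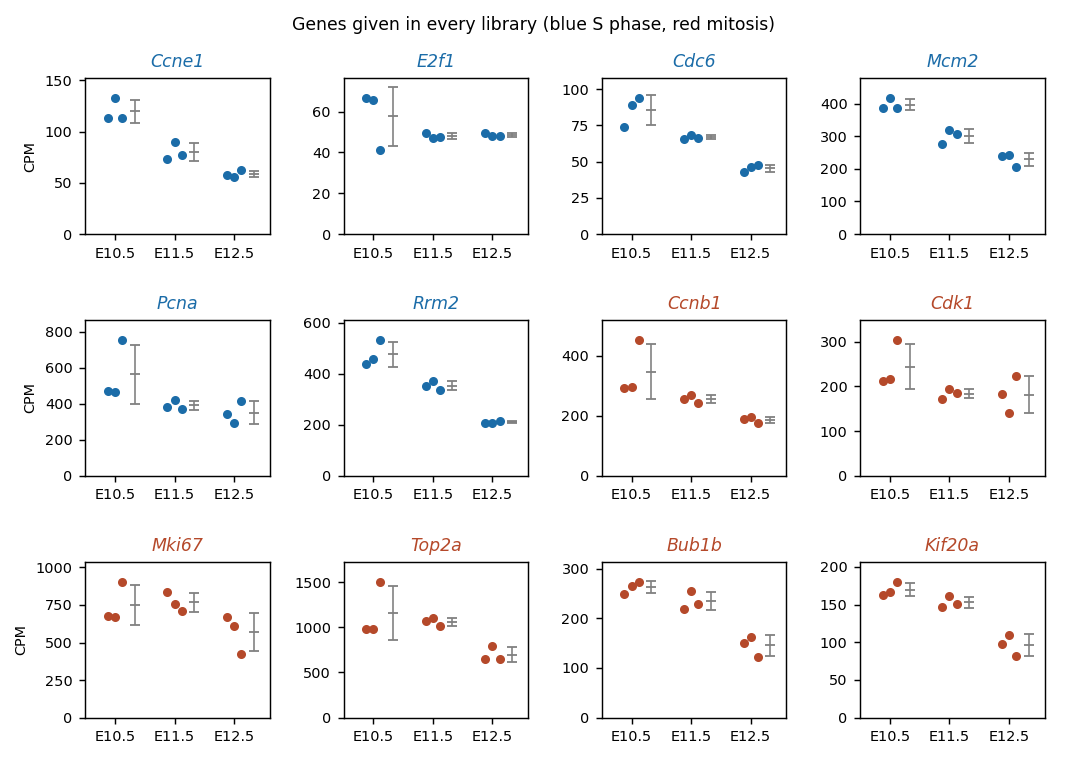
CPM of 12 genes in each library by stage, with the mean ± SD (n = 3) in grey beside the points and each axis starting at 0. *Rrm2* and *Ccne1* step down at each stage, *Bub1b* and *Kif20a* fall at E12.5, and *Cdk1* and *E2f1* overlap between stages.

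The first interval, E11.5 vs. E10.5, gave calls in the S phase list. Of the 22 S phase genes 4 were called lower (18.2%) and of the 28 mitosis genes 0, beside 5.58% of all 15708 genes tested. None was called higher, beside 6.19% of all genes, and none was a DEG, beside 2.61% of all genes lower and 3.46% higher. At an unadjusted p under 0.05 edgeR gave 9 S phase and 2 mitosis genes lower, for which no share of all genes is given. DESeq2 called 6 and 0, beside 8.47% of all genes. The genes called in the main fit were *Ccne1* (log2 fold change -0.58 ± 0.12, SE), *Cdt1* (-0.44 ± 0.10), *Mcm2* (-0.40 ± 0.10) and *Rrm2* (-0.43 ± 0.11). Their adjusted p from edgeR was 0.0193, 0.0289, 0.0413 and 0.0442. The median log2 fold change was -0.27 for the S phase genes and -0.14 for the mitosis genes, beside -0.03 for all genes. Without E10.5 replicate 3 the medians were -0.22 and -0.033, beside -0.0069 for all genes. All E11.5 libraries lay below all E10.5 libraries for 13 S phase and 6 mitosis genes, beside 18.3% of all genes, and above them for *Ccnb2*, beside 18.4%.

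These counts depended on single libraries. Omitting E10.5 replicate 1, 2 or 3 gave 1, 0 or 11 S phase genes lower, and omitting E11.5 replicate 1, 2 or 3 gave 0, 1 or 0. Of all genes 3.77%, 2.81%, 20.0%, 1.19%, 2.11% and 1.30% were called lower in these fits. Without E10.5 replicate 3, the 4 genes were joined by *Cdc25a*, *Cdc6*, *E2f1*, *Gins2*, *Mcm5*, *Mcm7* and *Pcna*, 6 mitosis genes were called lower (*Aurkb*, *Ccnb1*, *Cdc20*, *Cdk1*, *Cenpa* and *Plk1*), and *Chek1*, *Cdc25c*, *Cenpe* and *Nusap1* were called higher, beside 20.0% of all genes lower and 19.6% higher in that fit. The mitosis count was 0 in each of the other 5 fits. With the GC trend of each library removed, 8 S phase and 5 mitosis genes were called lower (*Ccnb1*, *Cdk1*, *Mad2l1*, *Prc1* and *Ttk* of the latter), beside 11.2% of all genes. The count of 0 does not show that the mitosis genes held their level from E10.5 to E11.5.

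In the second interval, E12.5 vs. E11.5, both lists held genes that were lower. Of the S phase genes 7 were called (31.8%) and of the mitosis genes 14 (50%), beside 4.57% of all 15808 genes tested, and none was called higher, beside 7.61%. None of the 50 was a DEG, beside 0.962% of all genes lower and 4.14% higher. The median log2 fold change was -0.35 for the S phase genes and -0.42 for the mitosis genes, beside 0.02 for all genes. All E12.5 libraries lay below all E11.5 libraries for 16 S phase and 23 mitosis genes, beside 16.9% of all genes. The S phase genes called were *Ccne1*, *Cdc25a*, *Cdc6*, *Mcm5*, *Mcm7*, *Rrm1* and *Rrm2*, with log2 fold changes from -0.75 (*Rrm2*, adjusted p = 0.00203, edgeR) to -0.42 (*Cdc25a*, adjusted p = 0.0312, edgeR). The mitosis genes called ranged from -0.70 (*Bub1b*, adjusted p = 0.00845, edgeR) to -0.39 (*Mad2l1*, adjusted p = 0.0477, edgeR) and included *Kif20a* (-0.67), *Top2a* (-0.61), *Bub1* (-0.58), *Kif11* (-0.54) and *Cenpe* (-0.54). Of the spindle checkpoint and APC/C genes 4 of 5 were called. *Pcna* (-0.16 ± 0.15, SE), *E2f1* (0.01 ± 0.11) and *Cdk1* (-0.02 ± 0.16) were not, and *Mki67* (-0.44 ± 0.17) did not pass (adjusted p = 0.11, edgeR).

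Here too the counts moved with single libraries. Omitting E11.5 replicate 1, 2 or 3 gave 2, 1 or 1 S phase genes and 3, 0 or 4 mitosis genes, and omitting E12.5 replicate 1, 2 or 3 gave 2, 10 or 10 S phase genes and 2, 18 or 15 mitosis genes. Of all genes 1.06% to 1.75% were called lower in these fits, save for 15.5% without E12.5 replicate 2 and 3.78% without E12.5 replicate 3. *Rrm2* was called in all 6 of these fits, and no mitosis gene was. *Bub1b* and *Kif20a* were called in 5 of 6 and missed the threshold without E11.5 replicate 2 (adjusted p = 0.0505 for each, edgeR). In a single fit of all 9 libraries, which share 1 estimate of the spread, the counts were 4 and 5, beside 2.40% of all genes.

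*Ccne1* and *Rrm2* were the 2 genes called lower in both intervals. *Cdc45* and *Mcm3* among the S phase genes and *Ccna2*, *Cdc20* and *Plk1* among the mitosis genes were called over the whole span and in neither interval, and *Cenpe* and *Kif11* in the second interval and not over the whole span. In no main fit of a comparison were *Ccne2*, *Cdk2*, *Chek1*, *E2f1*, *Gins1*, *Gins2*, *Gmnn*, *Mcm4*, *Mcm6*, *Pcna* and *Tyms* (11 S phase genes) called. Nor were *Anln*, *Aurkb*, *Birc5*, *Ccnb2*, *Cdc25b*, *Cdc25c*, *Cdk1*, *Cenpa*, *Kif23*, *Mki67* and *Nusap1* (11 mitosis genes). The intervals share the E11.5 libraries, so their calls are not independent of each other. The difference between the intervals was tested itself, as the change in E12.5 vs. E11.5 minus that in E11.5 vs. E10.5 on all 9 libraries. No gene of either list was called for it (smallest adjusted p = 0.408, edgeR), beside 1.18% of 16375 genes. An unadjusted p under 0.05 was found for 2 mitosis genes, for which no share of all genes is given. The median difference was -0.10 on the log2 scale for the S phase genes and -0.24 for the mitosis genes, beside 0.0125 for all genes. Of the 50 values 38 were negative, for which no share of all genes is given. The lists as a whole were not tested. A steeper fall in the second interval was thus not shown for any single gene.

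The lists were set against each other by their mean log2 CPM in each library. The S phase mean was 7.27, 7.33 and 7.52 in the libraries of E10.5, 7.05, 7.17 and 7.08 in those of E11.5, and 6.72, 6.72 and 6.88 in those of E12.5. The mitosis mean was 7.40, 7.42 and 7.70, then 7.37, 7.43 and 7.35, and then 6.996, 7.005 and 7.008. The S phase libraries of the 3 stages did not overlap, whereas the mitosis libraries of E10.5 and E11.5 did, and those of E12.5 lay below both. The S phase mean minus the mitosis mean was -0.13 ± 0.04 for E10.5, -0.28 ± 0.03 for E11.5 and -0.23 ± 0.09 for E12.5 (SD, n = 3 each). All E11.5 libraries (-0.32 to -0.26) lay below all E10.5 libraries (-0.17 to -0.09) in this difference, and those of E12.5 (-0.29 to -0.12) overlapped both. No p is given for a score over chosen genes. The order depended on the summary. With the median over genes in place of the mean, the difference was -0.33, -0.26 and -0.16 at the 3 stages and the libraries of E10.5 and E11.5 overlapped. Without *Ccna2*, *Top2a*, *Mki67*, *Cdk1* and *Gmnn*, whose products act or are present in more than 1 phase, the difference was 0.15, -0.002 and 0.04. The order of the stages was then the same as with the means over all 50 genes. The E10.5 libraries (0.12 to 0.18) again lay above those of E11.5 (-0.03 to 0.01).

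**Figure D4:**
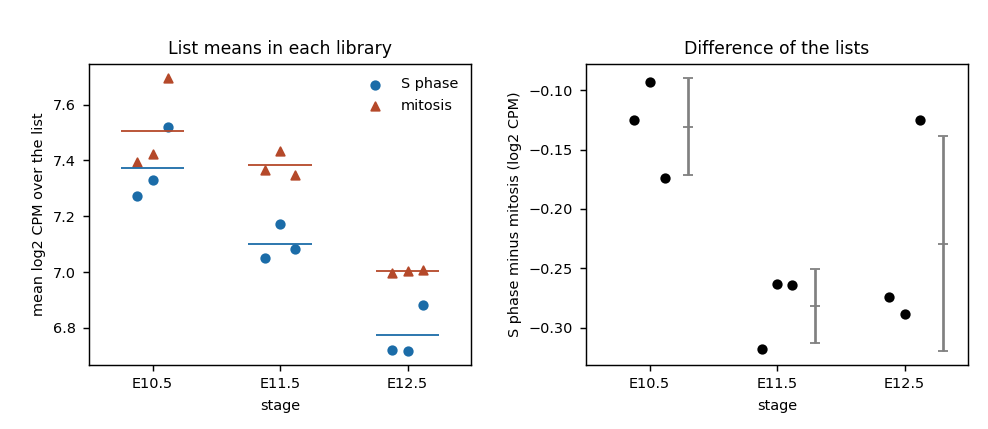
Left, mean log2 CPM over the 22 S phase genes (circles) and the 28 mitosis genes (triangles) in each library, with a line at each stage's mean. Right, the S phase mean minus the mitosis mean in each library, with the mean ± SD (n = 3) in grey. The S phase means step down at each stage, the mitosis means are lowest at E12.5, and the differences of E10.5 (-0.17 to -0.09) lie above those of E11.5 (-0.32 to -0.26).

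Levels of different genes were compared per length, on the deposited FPKM values. *Pcna* had the highest FPKM of the S phase genes at each stage, with 232 ± 68.4, 161 ± 11.2 and 144 ± 26.1 in order of stage (SD, n = 3 each). *Gins2* was the lowest S phase gene at E10.5 (12.7 ± 0.224) and *Ccne2* at E11.5 (10.6 ± 1.03) and E12.5 (8.22 ± 3.82). Among the mitosis genes *Top2a* was highest at E10.5 (127 ± 33.3) and E11.5 (117 ± 4.81) and *Cdc20* at E12.5 (85.9 ± 7.13), and the lowest were *Anln* (12.2 ± 1.66), *Kif23* (11.5 ± 0.188) and *Ttk* (9.21 ± 0.952). The median FPKM over the list went from 42.1 to 29.4 and 25.2 for the S phase genes and from 43.0 to 36.8 and 29.8 for the mitosis genes. Counts per library ran from 257 (*Ccne2*) to 12339 (*Rrm1*) for S phase genes and from 671 (*Cdc25c*) to 24238 (*Top2a*) for mitosis genes, so no gene was near the limit of detection. Processed copies of some of these genes took few reads, with 76 to 209 counts for *Ccnb2-ps*, 40 to 102 for *Pcna-ps2* and 27 to 60 for *Ccnb1-ps*.

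Other genes of the cycle were read from lists of 48 further S phase genes, 52 further mitosis genes and 18 transcription factors and repressors. In E12.5 vs. E10.5, 18 of the 48, 18 of the 52 and 7 of the 18 were called lower and 0, 0 and 1 higher, with median log2 fold changes of -0.47, -0.53 and -0.45. In E11.5 vs. E10.5 the counts lower were 4, 1 and 2, with 1 transcription factor gene higher, beside 6.19% of all genes higher, and in E12.5 vs. E11.5 they were 14, 20 and 5. As shares these were 8.33%, 1.92% and 11.1% in the first interval, beside 5.58% of all genes, and 29.2%, 38.5% and 27.8% in the second, beside 4.57%. The shares lower over the whole span (37.5%, 34.6% and 38.9%) were above the 10.5% of all genes. Of all genes 14.0% were called higher in that comparison.

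*Mcm10*, a replication initiation factor, gave 127, 132 and 146 CPM at E10.5, 93.1, 105.4 and 101 CPM at E11.5 and 59.3, 61.8 and 61.8 CPM at E12.5, a log2 fold change in E12.5 vs. E10.5 of -1.14 ± 0.16 (SE, adjusted p = 5.51e-04, edgeR). *Recql4*, a DNA helicase, went from 38.2 ± 7.89 to 14.6 ± 1.57 CPM (SD, n = 3 each; log2 fold change -1.37, adjusted p = 9.29e-04, edgeR). The mitosis genes with the smallest p were *Nek2*, a centrosomal kinase (log2 fold change -0.94, adjusted p = 0.00395, edgeR), and *Gtse1* (log2 fold change -0.84, adjusted p = 0.00456, edgeR). Both lay apart from E10.5 in all E12.5 libraries.

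Of the 18 regulators 7 were called lower in E12.5 vs. E10.5 and 1, *Rbl2*, higher, beside 10.5% and 14.0% of all genes. *Rbl2*, which encodes p130, a retinoblastoma family repressor of cycle genes in resting cells, gave 8.79, 8.65 and 10.2 CPM at E10.5, 17.5, 15.2 and 15.5 CPM at E11.5 and 18.3, 23.8 and 17.9 CPM at E12.5. The E10.5 libraries lay below all others, and the log2 fold change was 0.81 ± 0.15 (SE, adjusted p = 0.0131, edgeR) in E11.5 vs. E10.5 and 1.13 ± 0.21 (SE, adjusted p = 0.00323, edgeR) in E12.5 vs. E10.5. *E2f5*, a repressor-type E2F, was lower (log2 fold change -1.12, adjusted p = 0.00252, edgeR), as was *Mybl2*, the B-Myb activator of mitosis genes, which gave 89.0, 98.2 and 73.1 CPM at E10.5, 63.7, 72.2 and 65.4 CPM at E11.5 and 45.1, 48.4 and 42.6 CPM at E12.5 (log2 fold change -0.93, adjusted p = 0.00337, edgeR). *Foxm1*, another activator of mitosis genes, gave 168, 184 and 121 CPM at E10.5, 148, 149 and 154 CPM at E11.5 and 112, 116 and 75.2 CPM at E12.5. It was called in E12.5 vs. E11.5 (log2 fold change -0.58, adjusted p = 0.0386, edgeR) and missed the threshold in E12.5 vs. E10.5 (-0.63, adjusted p = 0.0598, edgeR). Of the late repressors of S phase genes, *E2f7* was lower in E12.5 vs. E10.5 (log2 fold change -0.86, adjusted p = 0.00936, edgeR) and *E2f8* was not called (log2 fold change -0.31, adjusted p = 0.299, edgeR). *Rb1*, of the same family as *Rbl2*, had mean levels of 25.8, 25.6 and 27.5 CPM in order of stage. Those of *Rbl1*, also of this family, were 58.4, 71.2 and 59.0 CPM.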

How the data were processed

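RNA-seq counts of 9 libraries (3 stages with 3 pools each) were used. The authors mapped reads to GRCm38/mm10 with HISAT2 2.0.5 and deposited featureCounts read counts per gene, without normalization. Whether reads were counted by strand is not given in the sources used here. FPKM values were deposited as the authors computed them from gene length and counts, and served only to compare levels between genes. The table's gene length was used as deposited. Its fold changes and p-values are from the authors' own tests and were not used.

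The genes and lists were chosen with earlier results of these data known. The 6 libraries of each comparison were fitted in edgeR 4.0.16 (filterByExpr, TMM, quasi-likelihood test, Benjamini-Hochberg adjustment, R 4.3.3). Change between intervals and all 3 stages together were tested on 9 libraries. SE is the absolute log2 fold change over the square root of F. Log2 CPM used a prior count of 2. The pools are the replicates, and p-values test the difference between stages against the spread between pools. With 3 libraries against 3, an exact permutation test cannot go below p = 0.1. Values in every library are given for *Pcna*, *Mcm2*, *E2f1*, *Ccne1*, *Mki67*, *Top2a*, *Ccnb1* and *Cdk1*, for the 3 genes of each list with the smallest p in E12.5 vs. E10.5 and for DEGs. *Ccne2*, *Mad2l1* and the regulators shown were added for their spread or role, *Ccne2* and *Mad2l1* after their values were seen. Of the other cycle genes, those named have the 2 smallest p of their list or are *Foxm1*, *Mybl2*, *E2f7* or *E2f8*. *Rb1* and *Rbl1* were added beside *Rbl2* after its values were seen. Exon overlaps and GC content came from GENCODE vM21. Deviations of same-numbered libraries of different stages had r between -0.15 and 0.22. In E12.5 vs. E10.5 these were 0.18, 0.07 and 0.22, all positive. The alternatives were DESeq2's size factors, upper quartile normalization, DESeq2 1.42.0, genes with at least 1 count or at least 10 in every library, all 9 libraries, a block for the replicate number, hemoglobin genes left out, GC or length trends removed (lowess, span 0.3), each library left out, and an adjusted p of at most 0.01. A marker of the mesenchyme list is not reported here. Figures were drawn in matplotlib 3.10.9.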

Additional observations from a re-analysis of the deposited data

How the results depend on the processing

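Depth was even between libraries and no gene of the lists was lost to a filter on low counts. Between stages, the fold changes of both lists kept their median direction in every alternative run, and the counts of calls moved more. In E11.5 vs. E10.5, the S phase count (4 lower) was 8 with the GC trend removed and 1 with the replicate number as a block. It was 0 at an adjusted p of at most 0.01. The mitosis count (0) was 5 with the GC trend removed. Of all genes 5.58% were called lower in the main fit, 11.2% with the GC trend removed and 3.56% with the block. In E12.5 vs. E10.5 (11 and 15), the counts were 7 and 2 at an adjusted p of at most 0.01. In E12.5 vs. E11.5 (7 and 14), the counts were 11 S phase genes by DESeq2 and 4 and 5 with all 9 libraries. They were 3 S phase genes with the replicate block, and 2 and 2 at an adjusted p of at most 0.01. Of all genes 4.57% were lower in the main fit, 7.41% by DESeq2, 2.40% with all 9 libraries and 5.75% with the block. Shares of all genes at the threshold of 0.01 are not given here. The median of the mitosis genes in E12.5 vs. E11.5 was -0.36 with upper quartile normalization. The block moved no other count by over 1.5 times, and deviations of same-numbered libraries had r of at most 0.22.

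Leaving out each library in turn gave 0 to 11 S phase genes lower and 0 to 1 higher and 0 to 6 mitosis genes lower and 0 to 3 higher in E11.5 vs. E10.5, 7 to 12 and 3 to 14 lower in E12.5 vs. E10.5, and 1 to 10 and 0 to 18 lower in E12.5 vs. E11.5. Medians ran from -0.66 to -0.45 (S phase, E12.5 vs. E10.5) and from -0.46 to -0.41 (mitosis, E12.5 vs. E11.5), and that of the mitosis genes in E11.5 vs. E10.5 from -0.15 to -0.033. The cause of these moves was not tested.

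The S phase mean minus the mitosis mean changed by -0.15 from E10.5 to E11.5 and by -0.10 from E10.5 to E12.5. With medians over the genes' levels the changes were 0.0663 and 0.17, in the opposite direction, and with the median of the genes' own changes, chosen after seeing the data, they were -0.12 and -0.05. Among the genes with a value in every library, several changed direction. In E11.5 vs. E10.5 the value of *Ccne2* (-0.41) became -0.64 without E10.5 replicate 1 and 0.22 without E10.5 replicate 3. *Mki67* in E11.5 vs. E10.5 was -0.00267 with the length trend removed and -0.0446 to 0.19 over the libraries left out, and *Top2a* there -0.23 to 0.12. *E2f1* in E12.5 vs. E11.5 was -0.0047 with DESeq2's size factors and -0.00467 by DESeq2, -0.0133 with at least 1 count, -0.13 and -0.0748 with the GC and length trends removed, and -0.0235 to 0.0194 over the libraries left out. *Cdk1* there was 0.0369 with upper quartile, 0.0141 and 0.0173 with the GC and length trends removed, and -0.21 to 0.13 over the libraries left out.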
